A study of Mus musculus with 6 samples.

Results

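Vertebrate chromosomes attach to the mitotic spindle through the kinetochore, a layered protein assembly built on centromeric chromatin, and this account describes the genes that encode its parts in mouse mammary epithelial cells with and without the kinase Plk2. The members are 42 genes listed by function: the outer microtubule-binding complexes, the inner complex that sits on the centromeric histone, the factors that load that histone, the spindle assembly checkpoint and the chromosomal passenger complex. All 42 had at least 1 probe matched through its RefSeq accession, out of 20145 genes with a matched probe. The list was drawn up by function, but with earlier results of these data known, so no p is given for it as a whole. Of the 42, 38 passed the filter on dim probes (3 or more of the 6 arrays with the probe well above background) and were tested among 24611 entries, an entry being a named gene or an unmatched probe. Only Spdl1 passed through the null arrays alone, being well above background on 3 null and 0 wild-type arrays. Cenpf, Ttk, Ska2 and Aurkb did not pass.

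The arrays came from 3 samples of primary mammary epithelial cells of genotype Plk2 -/- (null) and 3 of wild type, all from female mice aged 8 weeks of a mixed 129sv/C57Bl6 strain. Mammary glands had been dissociated, and each sample was hybridised in a single colour to its own array, with 51.2% to 54.8% of probes well above background on the null arrays and 50.2% to 52.3% on the wild-type arrays. The sources used here do not say which part of Plk2 was deleted, or whether a sample is a single animal or a pool, so p-values measure only the spread between these samples. Null and wild-type arrays lay in different rows of the same slide, so genotype and slide row cannot be told apart. All 15 luminal and 8 basal epithelial markers examined were well above background on every array, and so were all 18 lymphocyte markers on every wild-type array. Plk2 RNA, which checks the labels, stayed at background on the null arrays and was bright on the wild-type arrays: null cells had at least 135.0-fold less (limma adjusted p = 3.66e-06). With 3 arrays a group, their number sets the precision reached.

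In a dividing cell the inner kinetochore, called CCAN, binds nucleosomes that carry the histone variant Cenpa and recruits the Mis12 complex, which in turn holds the rod-shaped Ndc80 complex that grips microtubules. Kinetochores without a microtubule recruit checkpoint proteins, among them Bub1, Bub1b and Mad2l1, which delay anaphase. Several of these genes are known to be transcribed mainly in G2 and mitosis, so that their RNA is scarce in resting cells, while others are transcribed throughout the cycle. In the adult mammary gland most epithelial cells are at rest and divide in step with the hormonal cycle and pregnancy.

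Promoters of genes transcribed late in the cell cycle often hold the letters TTTGAA or TTCGAA, called the cell cycle genes homology region, near the start site, together with CCAAT boxes further upstream. Promoter windows are shown for Spc25, the member that passed the test, for Bub1 and Cdca8, which lie among the members with a difference of at least 2 on the log2 scale, and for Zwint, which lies among those with the smallest. Each window runs from 250 bases before to 50 bases after the start site in the RefSeq promoter table on GRCm38.p6, printed along the gene's strand, with capitals marking every match, on either strand, to the homology region (TTTGAA and its variant TTCGAA), to the CCAAT box and to TTCCCGC, a core of E2F sites. They lie at chr2:69206164-69206463 (minus strand) for Spc25, chr2:127831810-127832109 (minus) for Bub1, chr4:124936868-124937167 (minus) for Cdca8 and chr10:72654596-72654895 (plus) for Zwint.
Spc25: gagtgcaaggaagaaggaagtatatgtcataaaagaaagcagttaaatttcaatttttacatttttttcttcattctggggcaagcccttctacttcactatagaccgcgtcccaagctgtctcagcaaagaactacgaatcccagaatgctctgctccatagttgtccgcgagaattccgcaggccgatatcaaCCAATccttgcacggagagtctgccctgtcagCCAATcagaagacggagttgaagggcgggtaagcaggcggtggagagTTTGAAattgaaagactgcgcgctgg
Bub1: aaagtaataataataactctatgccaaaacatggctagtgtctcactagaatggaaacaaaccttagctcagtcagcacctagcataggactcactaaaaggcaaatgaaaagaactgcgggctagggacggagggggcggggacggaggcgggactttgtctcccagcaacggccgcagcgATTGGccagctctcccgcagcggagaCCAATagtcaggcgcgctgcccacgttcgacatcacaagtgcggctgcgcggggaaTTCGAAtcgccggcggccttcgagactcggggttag
Cdca8: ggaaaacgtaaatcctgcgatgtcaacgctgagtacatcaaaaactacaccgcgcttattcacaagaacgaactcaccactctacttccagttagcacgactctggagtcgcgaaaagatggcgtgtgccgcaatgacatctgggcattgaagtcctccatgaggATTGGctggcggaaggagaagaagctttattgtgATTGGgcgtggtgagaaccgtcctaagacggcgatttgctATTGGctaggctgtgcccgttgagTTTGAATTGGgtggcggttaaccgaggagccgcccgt
Zwint: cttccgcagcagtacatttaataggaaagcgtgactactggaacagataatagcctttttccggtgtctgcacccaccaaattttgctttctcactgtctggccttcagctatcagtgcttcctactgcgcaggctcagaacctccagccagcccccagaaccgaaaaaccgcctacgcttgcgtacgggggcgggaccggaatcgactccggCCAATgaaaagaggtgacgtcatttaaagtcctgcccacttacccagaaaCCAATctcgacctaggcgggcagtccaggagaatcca

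In the Spc25 window TTTGAA begins 25 bases after the start site and CCAAT begins 55 and 23 bases before it. Bub1 has TTCGAA at 15 bases after the start and a CCAAT match on each strand, and Cdca8 has TTTGAA at 14 bases after the start, where it overlaps a reverse CCAAT match, with 3 further such matches upstream. Zwint has 2 CCAAT matches and neither of the homology region sequences. The table held windows for 37 of the 42 members, 41 windows in all. TTTGAA occurred in 43.9% of the member windows and in 16.0% of the 21263 windows of protein-coding genes, CCAAT in 68.3% and 38.2%, and TTCCCGC in 24.4% and 5.95%. Either form of the homology region together with CCAAT stood in 41.5% of the member windows and 7.11% of all windows. Counted anywhere in the window, homology region matches did not go with the size of the difference in any plain way within the members. A homology region match was found in 13 of 22 members with a difference above 1 on the log2 scale, and in 7 of 14 tested members at or below 1. The 22 include Cenpf and Ttk, which were too dim to test and each had a match. These counts leave out position. In the members above 1 the match nearest the start site began between -14 and 41, except in Cenpm (-83). In those at or below 1 it began at 17 in Cenpa, 20 in Hjurp and -43 in Bub3. It began at -135 in Pmf1, -148 in Zw10, -162 in Cenpl and -241 in Mis18a. Position was not tested. These matches describe the windows and were not tested as sites.

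Measured levels of most kinetochore genes were higher in the null samples, which differed widely among themselves, and 1 member passed the test. Spc25, a subunit of the Ndc80 complex, rose 5.72-fold in null cells (log2 difference 2.52, SE 0.27; limma adjusted p = 0.0216), and it alone of the 38 tested members had an adjusted p under 0.05, where 0.219% of all entries were called higher. No member was called lower, against 0.333% of all entries. The median difference over the 38 was 1.60 on the log2 scale and over all entries 0.03. A positive difference was found in 37 of the 38 and in 52.4% of all entries, and a difference above 1 in 24 of the 38 and in 3.34% of all entries. An unadjusted p under 0.05 with the null group higher was reached by 30 members (13.1% of all entries) and with the null group lower by 0 (9.64%), and 33 had every null array above every wild-type array (19.2% of all entries). Adjusted p-values of the other 37 ran from 0.0537 to 0.573, and 17 of them, with Spc25 18 in all, lay under 0.1, where 3.45% of all entries were higher. Counting the 4 members that were too dim to test, 39 of 42 had a positive difference, with the same median of 1.60. Among all entries without the filter, 41.5% had a positive difference. Of the 4, Cenpf and Ttk were positive, each with 0 wild-type arrays well above background. Over the 36 members well above background on all 3 wild-type arrays, which leaves out Spdl1 and Oip5, 35 were positive, the median was 1.54, 28 reached an unadjusted p under 0.05 and 31 had groups that did not overlap. In whole-sample RNA such as this, more cells of a kind and more RNA per cell cannot be told apart.

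**Figure D1:**
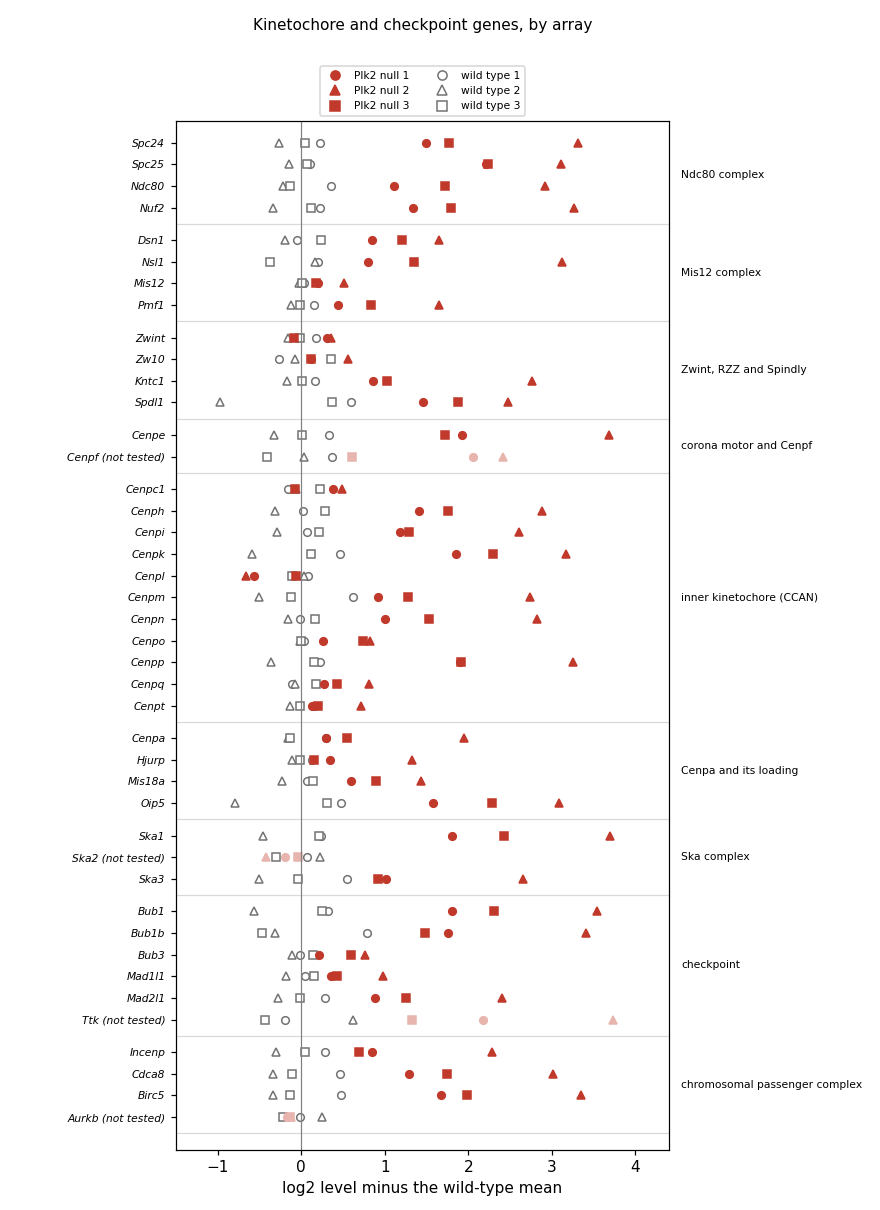
Each row is a member, grouped by role, and the horizontal axis gives its log2 level on each array minus the mean of the 3 wild-type arrays; filled symbols are null arrays (pale where the member was not tested) and open symbols wild-type arrays. Null 2, the filled triangle, is the rightmost symbol in 37 of the 38 tested members.

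**Figure D2:**
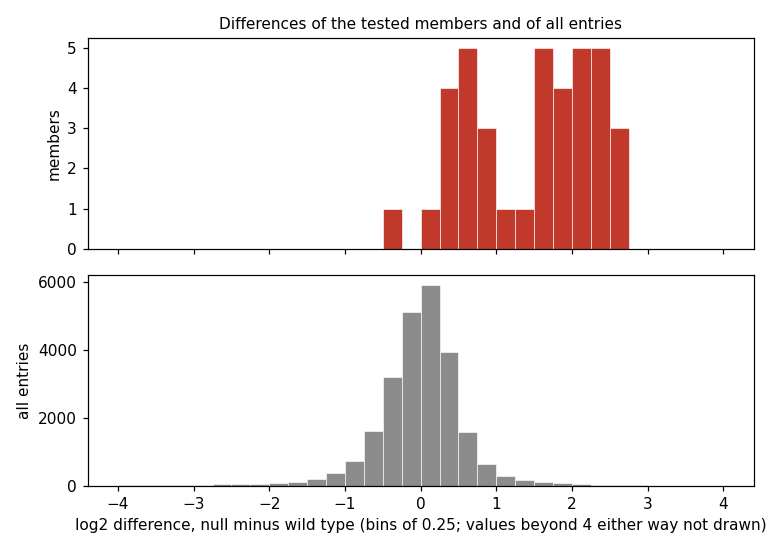
Histograms of the log2 difference, null minus wild type, for the 38 tested members (top) and for the 24611 entries (bottom), in bins of 0.25. The entries centre on 0.03, while 24 of the members lie above 1.

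The Ndc80 complex was the most uniform group, its 4 members having differences of 1.92 to 2.52. Spc25 had log2 levels, relative to each array's 75th percentile, of 2.51, 3.41 and 2.54 in null samples 1, 2 and 3, against 0.40, 0.15 and 0.37 in wild-type samples 1, 2 and 3. Its processed signals were 1759, 3049 and 1401 on the null arrays and 342, 278 and 365 on the wild-type arrays. The groups were more than 2 log2 units apart, and the SD was 0.51 in null and 0.14 in wild-type samples (n = 3 each), the smallest null spread in this complex. Its partner Spc24, with which it forms the inner end of the rod, had levels of -0.37, 1.45 and -0.09 in null samples and -1.63, -2.13 and -1.82 in wild-type samples, a difference of 2.19 (SE 0.47; limma adjusted p = 0.0806). Nuf2, at the microtubule end, had -1.52, 0.40 and -1.07 in null samples and -2.64, -3.20 and -2.74 in wild-type samples, a difference of 2.13 (SE 0.48; adjusted p = 0.0867). In each of these the groups did not overlap and null 2 stood highest. Ndc80, which binds the microtubule with Nuf2, differed by 1.92 (adjusted p = 0.0907).

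The Mis12 complex, the bridge between inner and outer kinetochore, was less uniform, with differences of 0.30 to 1.76. Dsn1, which contacts the inner kinetochore, had levels of -2.40, -1.60 and -2.04 in null samples and -3.30, -3.44 and -3.01 in wild-type samples, 2.36-fold higher in null cells (difference 1.24, SE 0.24; limma adjusted p = 0.0685). Nsl1 had -2.99, -0.67 and -2.44 in null samples and -3.59, -3.62 and -4.17 in wild-type samples, a difference of 1.76 with a wide error (SE 0.57; adjusted p = 0.148), since null 2 alone stood far above the rest. Pmf1 had 1.85, 3.06 and 2.25 in null samples against 1.56, 1.29 and 1.39 in wild-type samples, a difference of 0.97 (SE 0.31; adjusted p = 0.142). Mis12, which names the complex, differed by 0.30 (95% interval -0.07 to 0.66). Its null levels of -1.80, -1.49 and -1.82 lay just above the wild-type levels of -1.97, -2.03 and -1.99, without overlap.

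Zwint and the RZZ and Spindly proteins, which bring dynein and checkpoint proteins to the outer kinetochore, split into a pair with every null array above every wild-type array and a pair with differences near 0. Spdl1, the dynein adaptor Spindly, passed the background limit on null arrays alone and was higher there by at least 2.33-fold, with levels of -3.90, -2.88 and -3.48 in null samples and -4.76, -6.33 and -4.99 in wild-type samples (limma adjusted p = 0.0916, which sets signal in null samples against background in wild type). Kntc1, the Rod subunit of RZZ, had -1.70, 0.20 and -1.53 in null samples and -2.39, -2.73 and -2.55 in wild-type samples, a difference of 1.55 (SE 0.49; adjusted p = 0.141). Its complex partner Zw10, which also acts in membrane traffic, had 1.0, 1.44 and 1.0 in null samples and 0.61, 0.80 and 1.23 in wild-type samples, and the groups overlapped (difference 0.27, 95% interval -0.26 to 0.80). Zwint differed by 0.19 (95% interval -0.25 to 0.62), also with overlap.

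Cenpe, the kinesin of the outermost kinetochore that moves chromosomes to the spindle equator, had 2.28, 4.04 and 2.07 in null samples and 0.68, 0.02 and 0.36 in wild-type samples (difference 2.44, SE 0.52; limma adjusted p = 0.0799). Every null array lay at least 1 log2 unit above every wild-type array. The other large outer protein gene of this group, Cenpf, was well above background on 2 null and 0 wild-type arrays. Its null levels of -4.54, -4.18 and -5.98, against -6.22, -6.56 and -7.00 in wild type, lie too near background for a fold.

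All 11 inner kinetochore genes were tested, and their differences ran from -0.43 to 2.45. Cenpk had 0.75, 2.07 and 1.2 in null samples and -0.64, -1.69 and -0.98 in wild-type samples, 5.45-fold higher in null cells (difference 2.45, SE 0.40; limma adjusted p = 0.0537). Cenph, its partner in the same subcomplex, had 0.21, 1.68 and 0.56 in null samples and -1.18, -1.51 and -0.92 in wild-type samples (difference 2.02, SE 0.39; adjusted p = 0.0681). Cenpp, of another subcomplex, had 0.60, 1.95 and 0.61 in null samples and -1.07, -1.66 and -1.15 in wild-type samples (difference 2.35, SE 0.39; adjusted p = 0.0547). These genes had gaps of over 1 log2 unit between their groups. They are the 3 tested members on chromosome 13, which also carries Plk2, and their median difference was 2.35, against 1.53 over the 35 tested members on other chromosomes. The part of that shared position was not tested. Cenpi, Cenpm and Cenpn, further subunits, differed by 1.65 to 1.79, with adjusted p-values of 0.0897, 0.138 and 0.0967.

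The remaining inner genes had smaller differences, although they encode parts of the same assembly. Cenpc1, which binds the Cenpa nucleosome directly and anchors the Mis12 complex, differed by 0.27 (95% interval -0.22 to 0.75), and Cenpt, the other anchor of the outer kinetochore, by 0.34 (95% interval -0.14 to 0.82). Cenpo and Cenpq, of the same subcomplex as Cenpp, differed by 0.60 (95% interval 0.16 to 1.04) and 0.51 (95% interval 0.05 to 0.96). Their groups did not overlap, and their limma adjusted p-values were 0.133 and 0.184. Cenpl was the only tested member with a negative difference. Its levels of 1.09, 1.0 and 1.60 in null samples overlapped those of 1.74, 1.69 and 1.55 in wild-type samples (difference -0.43, SE 0.20; limma adjusted p = 0.255).

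Among the genes of Cenpa and its loading, the groups did not overlap for any of the 4, though sizes differed. Oip5, a subunit of the Mis18 complex that marks centromeres for loading, had -2.98, -1.48 and -2.28 in null samples and -4.08, -5.35 and -4.25 in wild-type samples (difference 2.31, SE 0.47; limma adjusted p = 0.0745); among wild-type arrays, 2 of 3 had it well above background. Mis18a, of the same complex, had 1.33, 2.16 and 1.62 in null samples against 0.80, 0.50 and 0.87 in wild-type samples, a difference of 0.98 (SE 0.24; adjusted p = 0.0970). Cenpa had 0.11, 1.76 and 0.36 in null samples and 0.10, -0.35 and -0.33 in wild-type samples, so null 1 stood barely above the highest wild-type array while null 2 stood far above it (difference 0.94, SE 0.43; adjusted p = 0.256). Hjurp, the chaperone that deposits Cenpa, differed by 0.61 (adjusted p = 0.30).

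The Ska complex tracks microtubule ends beside Ndc80. In the reported setting Ska1 had the largest difference among the tested members, with -1.31, 0.58 and -0.69 in null samples and -2.88, -3.58 and -2.91 in wild-type samples (6.28-fold higher in null cells; difference 2.65, SE 0.48; limma adjusted p = 0.0626). With normexp background correction its difference was 1.49, below the 2.33 of Spc25. Ska3 had -2.76, -1.12 and -2.86 in null samples and -3.23, -4.29 and -3.82 in wild-type samples (difference 1.53, SE 0.51; adjusted p = 0.152). For Ska1 the groups were over 1.5 log2 units apart, for Ska3 under 0.5. The probe for Ska2 stayed at background on all arrays and gives no fold.

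Of the checkpoint genes, 5 were tested and none had overlapping groups. Bub1, a kinase that brings other checkpoint proteins to the kinetochore, had -1.09, 0.64 and -0.59 in null samples and -2.58, -3.47 and -2.65 in wild-type samples (5.88-fold higher in null cells; difference 2.56, SE 0.47; limma adjusted p = 0.0638). Bub1b, which encodes BubR1, a part of the inhibitor of anaphase, had -1.23, 0.42 and -1.51 in null samples and -2.20, -3.31 and -3.46 in wild-type samples (difference 2.21, SE 0.57; adjusted p = 0.101). Mad2l1, another part of that inhibitor, had 1.13, 2.65 and 1.5 in null samples and 0.53, -0.03 and 0.23 in wild-type samples (difference 1.51, SE 0.39; adjusted p = 0.102). The remaining tested checkpoint genes, Bub3 and Mad1l1, differed by 0.52 and 0.59 (adjusted p = 0.174 and 0.170). Ttk, the kinase Mps1 that starts the signal, passed the background limit on 2 null and 0 wild-type arrays and had at least 1.48-fold more RNA in null cells, with levels of -4.31, -2.75 and -5.16 in null samples and -6.68, -5.86 and -6.91 in wild-type samples; it was not tested.

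The chromosomal passenger complex, the Aurora B kinase with its scaffold and targeting subunits, corrects faulty attachments. Birc5, which encodes survivin, had 3.52, 5.20 and 3.83 in null samples and 2.32, 1.51 and 1.71 in wild-type samples (difference 2.33, SE 0.46; limma adjusted p = 0.0718). Cdca8, or borealin, had 2.20, 3.92 and 2.66 in null samples and 1.37, 0.57 and 0.80 in wild-type samples (difference 2.01, SE 0.46; adjusted p = 0.0868). The scaffold Incenp had 2.92, 4.35 and 2.76 in null samples and 2.35, 1.77 and 2.11 in wild-type samples (difference 1.27, SE 0.43; adjusted p = 0.157). In all 3 the groups did not overlap and null 2 stood apart. The kinase itself, Aurkb, could not be read, as its single probe stayed at background on all 6 arrays.

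**Figure D3:**
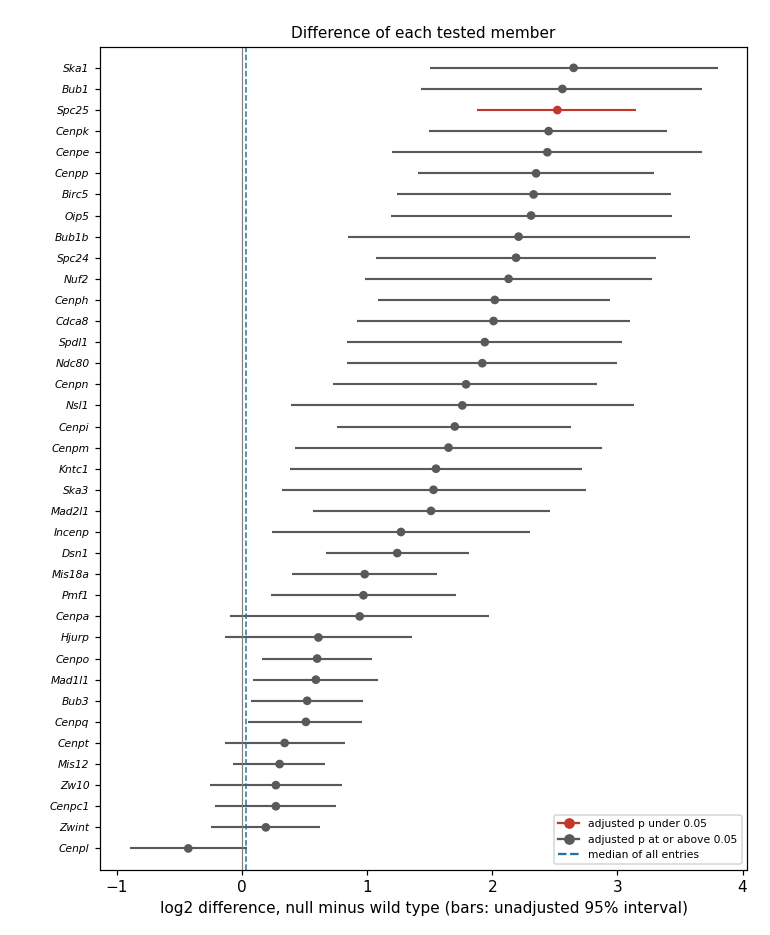
Log2 difference, null minus wild type, of each of the 38 tested members (points) with its unadjusted 95% interval from limma (bars); the dashed line is the median of all entries, 0.03. Spc25 is the single member with an adjusted p under 0.05, and Cenpl the single one below 0.

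Taking the members by size in the reported setting, 13 had a difference of 2 or more, 11 lay between 1 and 2, and 14 lay under 1, of which 9 were under 0.6. Dsn1 and Incenp were the members between 1 and 1.5. The low end held Zwint, Zw10, Cenpc1, Mis12, Cenpt, Cenpq, Bub3 and Mad1l1 beside Cenpl, and thus included subunits of complexes whose other subunits stood at the high end. The sizes depended on background correction. With normexp, Oip5 fell from 2.31 to 0.68, Bub1 from 2.56 to 1.49 and Nuf2 from 2.13 to 1.24. Spc25, Birc5 and Cenpe stayed above 2, at 2.33, 2.25 and 2.24.

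The null samples differed among themselves in the same order for most members. Null 2 was the highest of the 6 arrays for 37 of the 38, against 20.7% of all entries, and null 1 and null 3 for 0, against 11.5% and 25.6%. The order null 2, null 3, null 1 was found in 28 of the 38, a count that was not made over all entries. Relative to each gene's wild-type mean, the median member lay at 0.90, 2.63 and 1.27 log2 units in null samples 1, 2 and 3, and at 0.19, -0.22 and 0.03 in wild-type samples 1, 2 and 3. The SD between null samples was larger than that between wild-type samples for 36 of the 38 members, compared with 65.9% of all entries, with a median of 0.77 in null and 0.27 in wild-type samples. Without null 2 the members' median difference was 1.07. The call of Spc25 held without null 2 or null 3, and its adjusted p was 0.0676 without null 1 and 0.0867, 0.0984 and 0.0842 without wild-type sample 1, 2 or 3, and 0.065 with no filter on dim probes. With each array centred on its median 5 members were called, and with scaling on spike-in controls 15; spike-in scaling moved the median of all entries to 0.37 and that of the members to 1.94. Entries called higher and lower numbered 54 and 82 here, 176 and 164 with median centring and 385 and 151 with spike-in scaling. The members' median was 0.86 with normexp background correction and 0.92 with the deposited table's values.

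**Figure D4:**
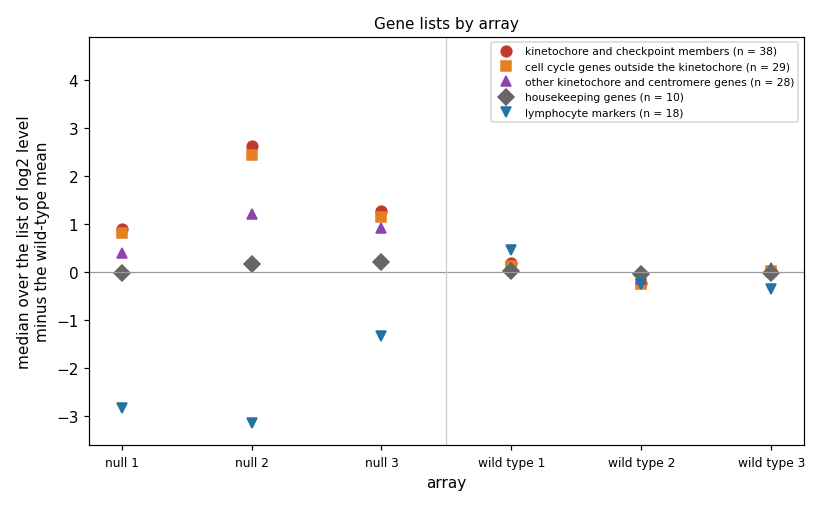
For each array, the median over a gene list of the log2 level minus the wild-type mean, for the 38 tested members, 29 cell cycle genes outside the kinetochore, 28 other kinetochore and centromere genes, 10 housekeeping genes and 18 lymphocyte markers. The members and the cell cycle genes lie close together on every array, highest on null 2 (2.63 and 2.43), while lymphocyte markers lie below 0 on the null arrays.

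Other genes of the pathway, a list of 30 kinetochore and centromere genes that are not members, showed a smaller median. Of the 28 tested, 25 had a difference above 0, the median was 0.81, and 0 passed in either direction (limma; unadjusted p under 0.05 in 16 higher and 1 lower). Cenpw, the histone-fold partner of Cenpt, differed by 1.95 (SE 0.33; adjusted p = 0.0547), shugoshin 1 (Sgo1), which protects sister cohesion, by 2.27 (SE 0.42; adjusted p = 0.0631) and Itgb3bp, which encodes CENP-R, by 0.90 (SE 0.18; adjusted p = 0.0730). Genes of the cell cycle outside the kinetochore, such as cyclins, replication factors and spindle genes, had a median of 1.53 over 29 tested, all 29 positive, with Mcm3 the 1 called (1.55, SE 0.18; adjusted p = 0.0284). Tk1 differed by 2.21, Ect2 by 1.94 and Ccna2 by 2.33, with adjusted p-values of 0.0745 to 0.0822. By array, the middle of that list was 0.82, 2.43 and 1.15 for null samples 1, 2 and 3, near that of the members. Housekeeping genes had a median of 0.13, with 0 of 10 called (limma; 0 at an unadjusted p under 0.05).

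Markers of other cell types were compared too. For lymphocyte markers there was a median difference of -2.40, with 18 of 18 negative, 0 called (limma; 17 at an unadjusted p under 0.05) and list medians of -2.82, -3.14 and -1.33 in null samples 1, 2 and 3, against 0.47, -0.24 and -0.34 in wild-type samples 1, 2 and 3. Cd247 stayed at background on the null arrays. Medians were -0.49 for fibroblast, -0.44 for endothelial and -0.49 for macrophage and myeloid markers, with 0 of 11, 0 of 9 and 0 of 9 called (limma; at an unadjusted p under 0.05, 6 fibroblast and 1 endothelial marker were lower, and of the myeloid markers 1 was lower and 1 higher). They were 0.26 for adipocyte, -0.08 for luminal and 0.51 for basal epithelial markers, where Pgr alone was called, with a difference of -1.96 (limma adjusted p = 0.0420). Luminal differences ran from -1.96 to 1.70, with 6 positive and 9 negative. At an unadjusted p under 0.05 (limma), 1 luminal marker was higher and 4 were lower. Of the basal markers 3 were higher and 0 lower, and of the adipocyte markers 0 passed in either direction. The part of these shifts in the kinetochore differences was not tested.

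For the 3 members with repeated spots, the spread between spots of an array was smaller than that between null samples. Bub1, Cenpo and Cenpq were each printed as 10 spots on every array. The SD between spots of 1 array on the log2 scale was 0.025 to 0.244 for Bub1, whose 3 null samples had an SD of 0.89. For Cenpo it was 0.070 to 0.112 and for Cenpq 0.062 to 0.074, against null SDs of 0.30 and 0.28. Among the 12 members with several probes, 12 further probes of 10 genes passed the filter. All 12 had the sign of the reported probe, and 10 lay within 0.3 log2 units of it. The second probe of Cdca8 gave 2.0 against 2.01, and those of Birc5 and Incenp 2.39 against 2.33 and 1.32 against 1.27. The largest gap, 0.41, was for Hjurp, where a dim probe gave 1.02 against 0.61 and another kept probe gave 0.29. The second probe of Cenpo gave 0.32 against 0.60.

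The authors' deposited table holds an unadjusted p-value and a fold per spot. Of its 62976 spots, 1.46% passed its thresholds of p under 0.01 and fold above 1.4 in either direction. So did 3 of the 38 members. These were Spc25 with a fold of 4.98, Dsn1 with 1.61 and Cenpk with 4.0, all higher in null cells. A fold above 1.4 alone (null over wild type) was listed there for 27 members, counting those with several spots only where all passed, and for 3.47% of all its spots. Both shares of spots include control spots and probes too dim to test, while the 38 members had passed the filter.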

How the data were processed

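Trizol-extracted RNA was amplified and labelled with Cy3, per the labels' protocols. Arrays of Agilent design 028005 (mm9) were read with Feature Extraction 11.0.1.1, per the file headers. The intensity used is the background-corrected processed signal of each spot, per the file headers, deposited without normalization between arrays. A series table holds intensities normalized by the authors, with a deposited p-value, a ratio (wild type divided by null) and a signed fold, null over wild type, entered here as a score. The sources used here do not give the steps behind that table; its columns rank spots as the median signal less background does (rank correlation 1.0).

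From the log2 of the processed signal, the 75th percentile of the gene spots on the same array was subtracted. The 3671 control spots and 1119 outlier spots over the 6 arrays were left out, and 0 spots were saturated. Spots of a probe were averaged. Probes were named by accession through a RefSeq table on GRCm38.p6, where 26582 of 55681 matched. A probe was well above background on an array where a share of more than 0.5 of its spots were. For each gene the kept probe with the highest mean was used. Differences are null minus wild type, from limma 3.58.1 (lmFit, eBayes; R 4.3.3), with p-values adjusted by Benjamini-Hochberg over all 24611 entries and a threshold of 0.05. A bound sets the brighter mean against, per array, the higher of the dim probe and the lowest probe well above background. The fit was tested on simulated arrays. Members and lists were chosen with earlier results of these data known. The text names every member and Plk2, and may name the 4 genes with the smallest p of each other list. Those of the other kinetochore and the cell cycle lists are given, except 1 that is not reported here; of the marker lists the text names the called gene and a gene at background in null cells; values in every sample are given for called members, the 3 smallest p of each role and any negative difference. Alternatives were background correction, normalization, filters, probe averaging, moderation, array weights, a replicate block, the deposited table's values and each array left out. Replicate numbers were not treated as pairs.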

Additional observations from a re-analysis of the deposited data

How the results depend on the processing

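Of the 38 member differences, none changed sign under any of the 17 alternatives in which it could be fitted. Entries called higher and lower numbered 54 and 82, and members called higher 1, in the reported setting. The counts were 676, 514 and 11 with normexp; 176, 164 and 5 with median centring; 385, 151 and 15 with spike-in scaling. They were 5, 26 and 0 with no filter; 203, 179 and 7 for probes well above background on all 6 arrays; 443, 388 and 13 with trend and robust moderation; 556, 694 and 10 with array weights; and 377, 378 and 5 with the deposited table's values. With the replicate number as a block they were 2, 6 and 0, and Spc25 was not called. The labels state no pairing, so the numbers were not taken as pairs. Deviations of same-numbered samples from their group means correlated at r of -0.119, 0.038 and -0.018. Deviations of 3 arrays from their own mean are tied to each other, so these values cannot show or exclude pairing. Leaving out an array gave 1 to 239 entries higher, 6 to 496 lower and 0 to 2 members higher, 2 of them without null 3; the members' median ran from 1.07 to 1.92. Members called lower stayed at 0 throughout. The cause of these shifts was not tested. Signal over background limits Aurkb, Ska2, Cenpf and Ttk, for which no difference was tested.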

Other observations

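Set against the rest of the cell cycle, the members lay on either side of it. When the median deviation of the 29 cell cycle genes outside the kinetochore was subtracted on each array, a comparison made after the values were seen and given with no test, the members' differences ran from -1.92 to 1.16 on the log2 scale, with a median of 0.11, 22 positive and 16 negative. Ska1 (1.16), Bub1 (1.07), Spc25 (1.03), Cenpk (0.95) and Cenpe (0.95) lay highest. Cenpl (-1.92), Zwint (-1.30), Zw10 (-1.22), Cenpc1 (-1.22) and Mis12 (-1.20) lay lowest. The SD between null samples was smaller after the subtraction for 26 of the 38, with a median of 0.25 where it had been 0.77. Among the smallest after it were Birc5 (0.05 after and 0.90 before), Cenpa (0.06 and 0.89) and Cdca8 (0.07 and 0.89). Mad2l1 (0.07 and 0.79) and Bub1 (0.09 and 0.89) were others. For the rest of the 38 the SD was larger after the subtraction. Examples are Cenpl (1.04 after and 0.32 before), Zwint (0.79 and 0.24), Cenpc1 (0.75 and 0.29) and Mis12 (0.67 and 0.19). For Spc25, the member past the test, the SD was 0.36 after and 0.51 before.

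Wild-type sample 2 was the lowest of the 6 arrays for 32 of the 38 members, against 19.2% of all entries.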
